A study of Homo sapiens with 22 samples.

Results

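The genes described here are 9 markers of ductal epithelium, the cell type from which pancreatic carcinoma is usually taken to arise. They are the keratins KRT8, KRT18, KRT19 and KRT80, the mucin MUC1, the tight junction protein CLDN4, the secreted lipocalin LCN2, the transcription factor SOX9 and the splicing regulator ESRP1. They are 9 of the 7302 genes with a named probe here. The genes were chosen by name, and every probe annotated with exactly 1 of these symbols was taken. That gave 10 of the 11606 probes measured in Mia-PaCa-2, with 2 probes for KRT18 and 1 for each other gene. In SK-MEL-28, 4 of 7975 probes were members, those of KRT80, MUC1, SOX9 and ESRP1. A further 2 probes that list KRT8 together with another gene were left out.

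RNA came from established human lines, the pancreatic carcinoma line Mia-PaCa-2 and the melanoma line SK-MEL-28. Treated cells received Amblyomin-X, a Kunitz type protease inhibitor from a tick, at 1 µM for 4 h, and untreated cells received none. All cells were grown in the same serum-containing medium. For Mia-PaCa-2 each condition had 6 arrays, and for SK-MEL-28 each had 5. The series' design text calls the labelled RNA preparations independent but does not speak of separate cultures, so each p-value reflects the spread from array to array and nothing more, and that spread may be technical. Levels are given as log2 of the authors' normalized intensity, and differences are treated minus untreated on that scale. A level belongs to its own probe and cannot be set against that of another probe.

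Keratins are the intermediate filament proteins of epithelial cells. A type II keratin pairs with a type I keratin, and KRT8 with KRT18 is the pair of simple epithelia, to which KRT19 is added in ducts. MUC1 is a membrane mucin that coats the surface facing the duct, CLDN4 seals the contacts between neighbouring cells, and SOX9 maintains the ductal state. Of these markers, the keratins are commonly used to tell epithelial from mesenchymal or melanocytic cells.

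Some arrays carried weight for both lines, namely the untreated Mia-PaCa-2 arrays numbered 4 and 5 and the treated SK-MEL-28 arrays numbered 3 and 5. This was measured by fitting every array with the average profile of each line. Such arrays are called alike to both lines, or said to resemble both, by these weights alone. How well the profiles described them was not measured. Of the members measured in both lines, only KRT80 lay between the lines on these arrays, as given below. These 4 arrays were picked after their values were seen and were left out of the averages. The other arrays made up the averages, so their weights for their own line lie near 1 by design. On the untreated Mia-PaCa-2 pair the Mia-PaCa-2 profile had weights of 0.59 to 0.595, and that of SK-MEL-28 had 0.513 on both. On the treated SK-MEL-28 pair these were 0.588 to 0.595 and 0.433 to 0.481. The other 10 Mia-PaCa-2 arrays had Mia-PaCa-2 weights of 0.979 to 1.03, and the other 8 of SK-MEL-28 had weights of 0.965 to 1.03 for their own line. Differences are therefore given with and without these 4 arrays for most members, and their part in any other result was not tested. The brightness of a probe did not give the level of its gene. On the 10 Mia-PaCa-2 arrays alike to that line alone, the probes of KRT18 stood at median percentiles of 99.9 (7 arrays with a value) and 59.7. The label of ductal markers was therefore taken from textbook knowledge and was not checked by ranking the members.

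In Mia-PaCa-2 none of the 10 member probes passed an adjusted p of 0.05 by limma, where 0% of all 11604 tested probes passed. At an unadjusted p under 0.05 there was 1 member probe, that of MUC1, lower in treated cells. Over all probes 9.59% had such a p, and 4.4% had it with a lower value in treated cells, so 1 of 10 is close to that background. The changes were negative for 6 member probes and positive for 4, with a median of -0.27, against 48.8% negative and a median of 0.01 over all probes. Without untreated arrays 4 and 5 there were again 6 negative and 4 positive, with a median of -0.15, against 49.4% negative over all probes. In that fit also 0% of probes passed. None of the 10 probes had treated and untreated arrays that did not overlap, where 0.543% of all probes did. Because these are bulk RNA samples, fewer cells carrying a marker and less RNA per cell cannot be told apart.

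**Figure D1:**
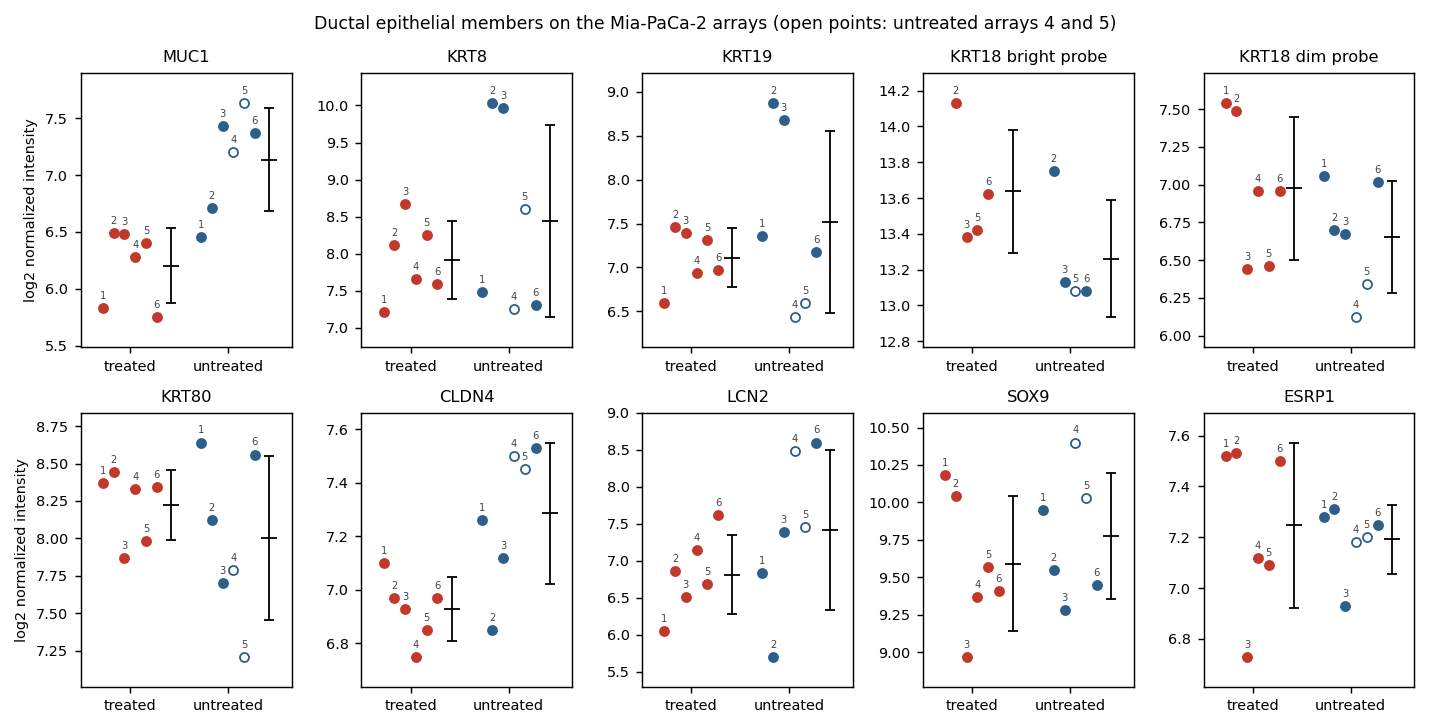
Level of each member probe on the 12 Mia-PaCa-2 arrays (y axis, log2 normalized intensity, a separate scale per panel), treated left and untreated right. Points are arrays with their numbers, open points are untreated arrays 4 and 5, and bars are the mean and SD of all arrays of the group with a value. MUC1 shows 4 of 6 treated arrays below every untreated array, while KRT8 and KRT19 stand apart on untreated arrays 2 and 3.

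MUC1, read by probe 288022, had the smallest p among the members. Its promoter is shown because the change of this gene is the largest, relative to its error, among the 9. The 250 bases before the MUC1 start site in RefSeq, GRCh38.p14, chr1:155192916-155193165, minus strand, read as follows from 5′ to 3′, with matches to 3 motifs in capitals.
MUC1 promoter: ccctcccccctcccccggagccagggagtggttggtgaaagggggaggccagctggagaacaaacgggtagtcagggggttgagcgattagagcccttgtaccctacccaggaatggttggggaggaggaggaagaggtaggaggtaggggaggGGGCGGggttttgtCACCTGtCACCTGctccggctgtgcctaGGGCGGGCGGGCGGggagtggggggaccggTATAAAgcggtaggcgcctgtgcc
The motifs were TATAAA, the TATA box, then GGGCGG, the GC box, and lastly CACCTG, the E-box form known to be bound by SNAI1 and ZEB1, which repress epithelial genes. Each was searched on both strands. There was 1 TATA box starting 24 bases before the start site. The 2 E-boxes started 82 and 75 bases before it and do not overlap. Of 4 GC boxes, those 54, 50 and 46 bases before it overlap each other, and the fourth lies 96 bases before it. Over the same window of 27305 promoters, 11.1% held a TATA box, 42.3% a GC box and 17.5% this E-box. A match describes the letters and shows no binding. Among the members, 4 had a promoter in the table used.

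MUC1 had levels of 5.83, 6.49, 6.48, 6.28, 6.40 and 5.75 on treated Mia-PaCa-2 arrays 1 to 6, against 6.46, 6.71, 7.43, 7.20, 7.63 and 7.37 on untreated arrays 1 to 6. Treated arrays 1 and 6 were the lowest, and treated arrays 2 and 3 lay just above untreated array 1, which is where the groups overlap. The means were 6.20 ± 0.33 in treated and 7.13 ± 0.45 in untreated cells (SD, n = 6 each). The difference was -0.93 ± 0.23 (SE), a 1.9-fold lower intensity, with a 95% interval of -1.42 to -0.44, an unadjusted p of 0.00106 and an adjusted p of 0.501 by limma. By its p, MUC1 was number 13 of the 11604 probes, and number 51 without untreated arrays 4 and 5. Each of the 6 treated values was under the mean of the untreated ones. Without untreated arrays 4 and 5 the difference was -0.79 ± 0.24, with an unadjusted p of 0.00602 and an adjusted p of 0.884 by limma. In that fit 6 of 6 treated arrays were again below the mean of the other untreated arrays. With an offset of 50 added before the log, which damps dim probes, the difference was -0.63.

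The MUC1 probe was not a bright one in Mia-PaCa-2. It stood between percentile 17.1 and 45.5 of all probes on the treated arrays and between percentile 44.5 and 74.2 on the untreated arrays. The 3 named probes whose levels were most like MUC1 over the 12 arrays, out of 6867, were those of CLYBL (Pearson r of 0.912), GRWD1 (0.904) and ASS1 (0.904).

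CLDN4, a claudin that tightens the paracellular seal, also had lower values in treated cells, by less. It stood at 6.75 to 7.10 on the treated arrays (median 6.95) and at 6.85 to 7.53 on the untreated arrays (median 7.35). Here too each of the 6 treated values was under the untreated average, and the groups overlapped because untreated array 2 was as low as the treated arrays. The difference was -0.36 ± 0.17 (SE, n = 6 each; unadjusted p = 0.0538, limma, adjusted p = 0.501). Without untreated arrays 4 and 5, which were among the highest at 7.50 and 7.45, it was -0.26 ± 0.16 (limma, adjusted p = 0.884).

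LCN2, which binds iron-carrying siderophores and is secreted by stressed epithelium, varied widely between arrays of 1 group. It had levels of 6.05, 6.86, 6.51, 7.14, 6.69 and 7.62 on treated arrays 1 to 6, against 6.84, 5.70, 7.39, 8.49, 7.46 and 8.60 on untreated arrays 1 to 6. The lowest and the highest value both lay among the untreated arrays, on arrays 2 and 6. The difference was -0.60 ± 0.42 (SE; limma, adjusted p = 0.55), and its 95% interval of -1.49 to 0.29 includes both directions. Without untreated arrays 4 and 5 it was -0.32 ± 0.46. Single arrays moved it either way, to -0.94 without untreated array 2 (unadjusted p = 0.0153, limma, adjusted p = 0.388) and to -0.36 without untreated array 6.

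Among the keratins, KRT8 and KRT19 had negative differences and both KRT18 probes and KRT80 positive ones, none past the test. KRT8, the type II keratin of simple epithelia, had levels of 7.21, 8.12, 8.67, 7.66, 8.25 and 7.59 on treated arrays 1 to 6, against 7.48, 10.03, 9.96, 7.26, 8.60 and 7.31 on untreated arrays 1 to 6. Untreated arrays 2 and 3 were far above the other 10 arrays, and the other 4 untreated arrays fell within the treated range. The means were 7.92 ± 0.53 in treated and 8.44 ± 1.30 in untreated cells (SD, n = 6 each), with a difference of -0.52 ± 0.48 (SE; limma, adjusted p = 0.639). Without untreated arrays 4 and 5 it was -0.78 ± 0.54, and leaving out untreated array 2 alone gave -0.20.

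KRT19, the type I keratin of duct cells that has no fixed type II partner, had levels of 6.59, 7.46, 7.39, 6.94, 7.31 and 6.97 on treated arrays 1 to 6, against 7.36, 8.87, 8.68, 6.43, 6.59 and 7.18 on untreated arrays 1 to 6. The same untreated arrays 2 and 3 were the highest, and untreated arrays 4 and 5, which resembled both lines, were the lowest of their group. The difference was -0.41 ± 0.38 (SE; limma, adjusted p = 0.643). Without arrays 4 and 5 it was -0.91 ± 0.33, with an unadjusted p of 0.0172 and an adjusted p of 0.884, and 3 of 6 treated arrays then lay below every untreated array. That p joins MUC1's as the second of 10 members under 0.05 in the fit without those arrays, where 5.48% of all probes had such a p. Leaving out untreated array 2 alone gave -0.14.

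KRT8 and KRT19 varied together over the 12 Mia-PaCa-2 arrays, with a Pearson r of 0.849 (permutation p = 0.00229, adjusted p = 0.067 over 36 pairs of members) and a Spearman rho of 0.727 (permutation p = 0.00968, adjusted p = 0.174; both two-sided). The correlation was 0.913 within the 6 treated arrays, 0.83 within the 6 untreated arrays and 0.943 without untreated arrays 4 and 5. Without the 2 arrays farthest from the KRT8 median, untreated arrays 2 and 3, r was 0.349, so the pooled relation rests largely on those arrays. Of 6867 named probes, 1.72% followed KRT8 at least as closely as KRT19 did. The closest were those of CLPTM1L (r of 0.982), UBE2S (0.97) and C5orf15 (0.97), and the probes closest to KRT19 were those of MTX1 (0.973), DCAF7 (0.954) and NOB1 (0.937). RefSeq names 52 pseudogenes after KRT8, 68 after KRT18 and 5 after KRT19, and whether these probes also bind their transcripts was not tested.

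**Figure D2:**
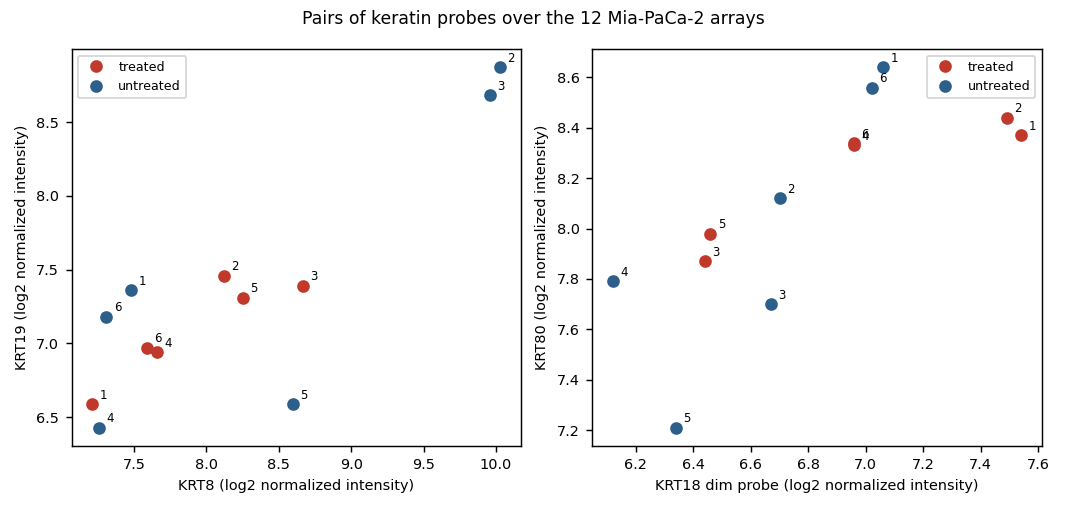
Levels of KRT19 against KRT8 (left) and of KRT80 against the dim KRT18 probe (right) on the 12 Mia-PaCa-2 arrays (log2 normalized intensity on both axes; points are arrays with their numbers, treated in red and untreated in blue). Untreated arrays 2 and 3 lie at KRT8 levels of 10.03 and 9.96, apart from the rest, whereas the points at the right show no such gap.

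KRT18, the type I partner of KRT8, was read by 2 probes, 254041 and 239004, called bright and dim here after their mean levels. The bright probe was among the 16 brightest of the array on all 12 Mia-PaCa-2 arrays. By the per-sample intensities, that is before the authors' normalization, it held places 5, 7, 10, 9, 9 and 7 on treated arrays 1 to 6, against places 7, 8, 13, 13, 16 and 14 on untreated arrays 1 to 6, with place 1 the brightest. The treated arrays held the higher places, and untreated arrays 1 and 2 lay within the treated range.

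The normalized level of the bright KRT18 probe is affected by how the table was made. On each of the 22 arrays, as many of the brightest probes lacked a normalized value as there were probes without a per-sample value, from 0 to 14 per array. The bright KRT18 probe fell among them on treated arrays 1 and 4 and on untreated arrays 1 and 4. On the arrays where it kept a value, its place among the normalized probes moved up by the number of brighter probes that had none, to place 2 on treated array 2 and place 4 on untreated array 2, for example. It had normalized levels of 14.13, 13.38, 13.42 and 13.62 on treated arrays 2, 3, 5 and 6, against 13.75, 13.13, 13.08 and 13.08 on untreated arrays 2, 3, 5 and 6. The fit, which drops the 4 missing arrays, gave a difference of 0.38 ± 0.26 (SE, n = 4 each; limma, adjusted p = 0.551).

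Normalizing the per-sample intensities by quantiles within the line, which keeps the bright KRT18 probe on all 12 arrays, gave 13.39 ± 0.12 in treated and 13.13 ± 0.22 in untreated cells (SD, n = 6 each). The difference was then 0.26 ± 0.16 (SE), with a 95% interval of -0.08 to 0.61 (limma, adjusted p = 0.517). The dim KRT18 probe stood at 6.44 to 7.54 on treated (median 6.96) and at 6.12 to 7.06 on untreated arrays (median 6.69), and differed by 0.32 ± 0.24 (limma, adjusted p = 0.574), or 0.11 ± 0.24 without untreated arrays 4 and 5, its lowest arrays. Both KRT18 probes thus had positive differences, and neither passed. Over the 8 arrays on which both had a value their levels correlated with a Pearson r of 0.636, and a Spearman rho of 0.548, given as a description. The probes most like the bright KRT18 probe over these 8 arrays were those of TPI1 (r of 0.971), INTS13 (0.945) and BRPF1 (0.933).

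**Figure D3:**
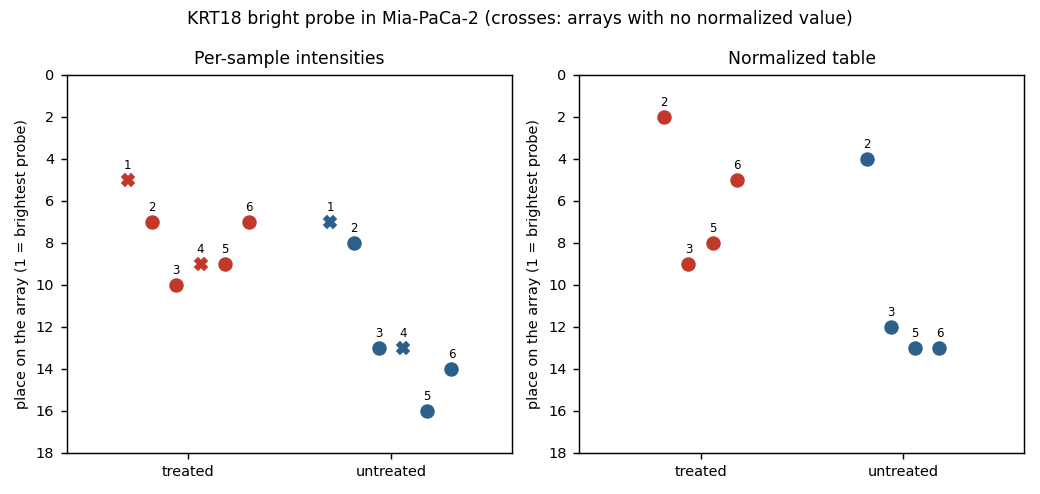
Place of the bright KRT18 probe on each Mia-PaCa-2 array (y axis, 1 is the brightest probe), by the per-sample intensities (left) and in the normalized table (right), treated left and untreated right in each panel. Points are arrays with their numbers, and crosses are the 4 arrays on which the probe has no normalized value. By the per-sample intensities the treated arrays hold places 5 to 10 and the untreated arrays places 7 to 16.

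KRT80, a type II keratin found in many epithelia, stood at 7.87 to 8.44 on treated arrays (median 8.34) and at 7.21 to 8.64 on untreated arrays (median 7.96). The untreated arrays enclosed the treated ones. The difference was 0.22 ± 0.24 (SE, n = 6 each; limma, adjusted p = 0.688), and -0.03 ± 0.21 without untreated arrays 4 and 5. It was 0.06 without untreated array 5 alone and 0.35 without untreated array 1. The level of KRT80 followed that of the dim KRT18 probe, with a Spearman rho of 0.874 (permutation p = 0.00047, adjusted p = 0.0169 over 36 pairs) and a Pearson r of 0.762 (permutation p = 0.00372, adjusted p = 0.067; both two-sided) over 12 arrays. The r was 0.896 within treated and 0.816 within untreated arrays, and 0.715 without untreated arrays 4 and 5. It was 0.807 without the 2 arrays farthest from the median of the dim KRT18 probe. This was the only one of the 36 pairs with an adjusted p under 0.05 by either measure, and 1.25% of 6867 named probes had an r with the dim KRT18 probe at least as high as KRT80. The probes most like KRT80 were those of NDRG3 (r of 0.961), ZNF496 (0.959) and PSMD1 (0.958).

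SOX9 and ESRP1, the regulators among the members, differed little between treated and untreated Mia-PaCa-2 cells. SOX9 stood at 8.97 to 10.18 on treated (median 9.49) and at 9.28 to 10.40 on untreated arrays (median 9.75), with the 2 groups interleaved. Its difference was -0.19 ± 0.25 (SE, n = 6 each; limma, adjusted p = 0.743), and 0.03 ± 0.24 without untreated arrays 4 and 5, which held the 2 highest untreated levels. ESRP1 directs the splicing of epithelial isoforms. It stood at 6.73 to 7.53 on treated (median 7.31) and at 6.93 to 7.31 on untreated arrays (median 7.23), and differed by 0.06 ± 0.18 (limma, adjusted p = 0.912). The 95% intervals, -0.71 to 0.34 for SOX9 and -0.33 to 0.44 for ESRP1, bound what these arrays could show.

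**Figure D4:**
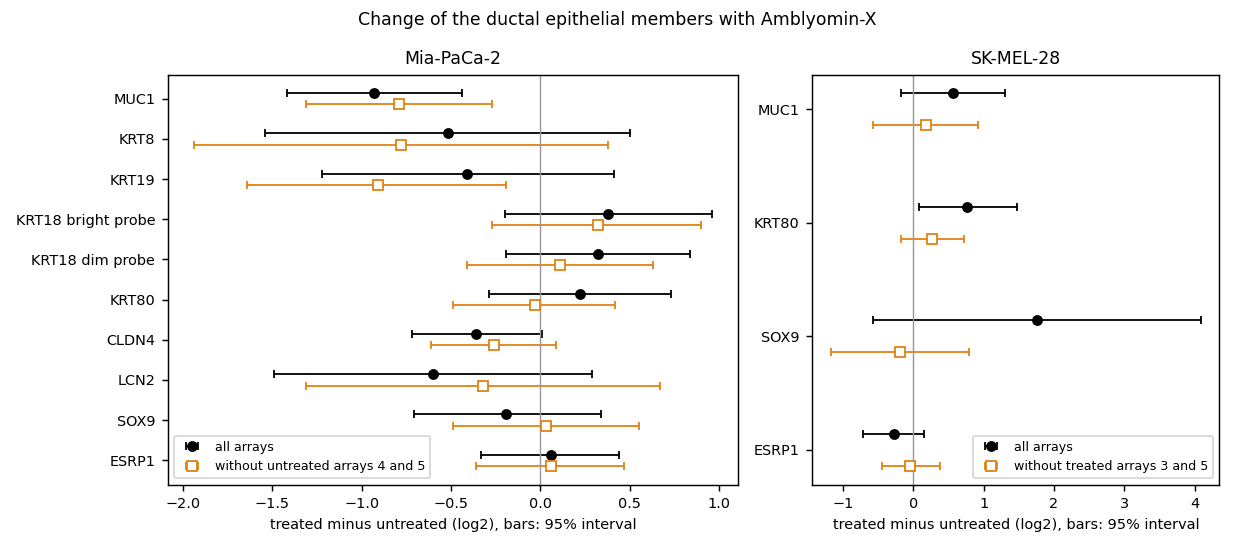
Treated minus untreated (x axis, log2) of each member probe in Mia-PaCa-2 (left) and SK-MEL-28 (right). Points are limma estimates and bars their 95% intervals, filled circles with all arrays and open squares without the 2 arrays of the line that resembled both lines. The MUC1 intervals in Mia-PaCa-2 lie below 0 in both fits, at -1.42 to -0.44 with all arrays, while that of SOX9 in SK-MEL-28 runs from -0.57 to 4.09 with all arrays.

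Other epithelial genes did not pass either in Mia-PaCa-2, and few of them had a named probe here. Of 7 epithelial regulators 4 had a negative change (median -0.05), and 2 had one without untreated arrays 4 and 5 (median 0.03). EHF, an epithelial transcription factor of the ETS family, had the smallest p of them, with 5.55 ± 0.65 in treated and 6.30 ± 0.73 in untreated cells (SD, n = 6 each) and a difference of -0.75 ± 0.35 (SE; limma, adjusted p = 0.501), or -1.19 without untreated arrays 4 and 5. Of 5 adherens junction and desmosome genes 2 were negative (median 0.05), or 3 without untreated arrays 4 and 5 (median -0.08). In the fit without those arrays 1 of the 5 had an unadjusted p under 0.05 by limma, where 5.48% of all probes did. Both mucin probes other than MUC1, for MUC3A and CD164, were negative, at -0.29 ± 0.20 and -0.01 ± 0.20. Without untreated arrays 4 and 5 they were -0.07 and -0.10. KRT16, another keratin, had -0.12 ± 0.23, or 0.17 without untreated arrays 4 and 5. The polarity protein PARD3, the tight junction gene with a probe, had 0.25 ± 0.23, or 0.05 without them. None passed an adjusted p of 0.05.

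Markers of other cell types were as sparsely measured. The 3 mesenchymal genes with a probe, AXL, S100A4 and COL1A1, had a median change of -0.00 in Mia-PaCa-2, and none had an unadjusted p under 0.05. Of 3 melanocyte markers, RAB27A had 0.68 ± 0.33 (SE; limma, adjusted p = 0.501), KIT -0.67 ± 0.35 and SLC45A2 0.13 ± 0.20. RAB27A was 0.37 without untreated arrays 4 and 5. Acinar enzymes were not analysed here, for want of a named probe. The endocrine list was read by SYP (-0.33 ± 0.18) and the fibroblast and immune list by PECAM1 (-0.23 ± 0.21). Without untreated arrays 4 and 5, SYP was -0.23 and PECAM1 0.01.

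The ranks of the members in SK-MEL-28, a melanoma line, are described here beside those in Mia-PaCa-2. They are no separate check of the arrays alike to both lines, since the members were among the probes used for the fit of the profiles. What the gene names stand for on 8 SK-MEL-28 arrays is uncertain, as given below. Since the lines were normalized apart, each probe was ranked among the 5324 probes measured in both lines, as a percentile of the array, with no test between lines. SOX9 stood between percentile 91.1 and 96.7 on all 12 Mia-PaCa-2 arrays. In SK-MEL-28 it stood at percentiles 93.1 and 94.4 on treated arrays 3 and 5, against 0.283 to 12.9 on the remaining 8. The 2 arrays that resembled both lines therefore had SOX9 near its Mia-PaCa-2 rank, with nothing in between.

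KRT80 also differed in rank between the pairs and the other arrays. On the SK-MEL-28 pair it stood at percentiles from 52.9 to 66, against 11.3 to 29.5 on the remaining 8 arrays of that line. On the Mia-PaCa-2 pair it stood at percentiles from 51.8 to 66.5, against 76.2 to 88.9 on the other 10 Mia-PaCa-2 arrays. Both pairs thus lay between the ranges of the lines. ESRP1 did not separate the lines, with percentiles of 54.4 to 73.1 on the 10 other Mia-PaCa-2 arrays and 64.2 to 73.7 on 8 arrays of SK-MEL-28. On all 4 arrays that resembled both lines it was lower, at 48.2 to 51.6. MUC1 did not tell the lines apart, because their ranges overlapped. The Mia-PaCa-2 pair stood at percentiles 50.3 and 63.3, within the 16.8 to 71.2 of the other 10. The SK-MEL-28 pair, at 61.7 and 68.6, was above all 8 others, which spanned 14.4 to 50.6. These pairs are untreated in Mia-PaCa-2 but treated in SK-MEL-28. Leaving out each pair changed the MUC1 difference from -0.93 to -0.79 in Mia-PaCa-2, and from 0.57 to 0.18 in SK-MEL-28.

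**Figure D5:**
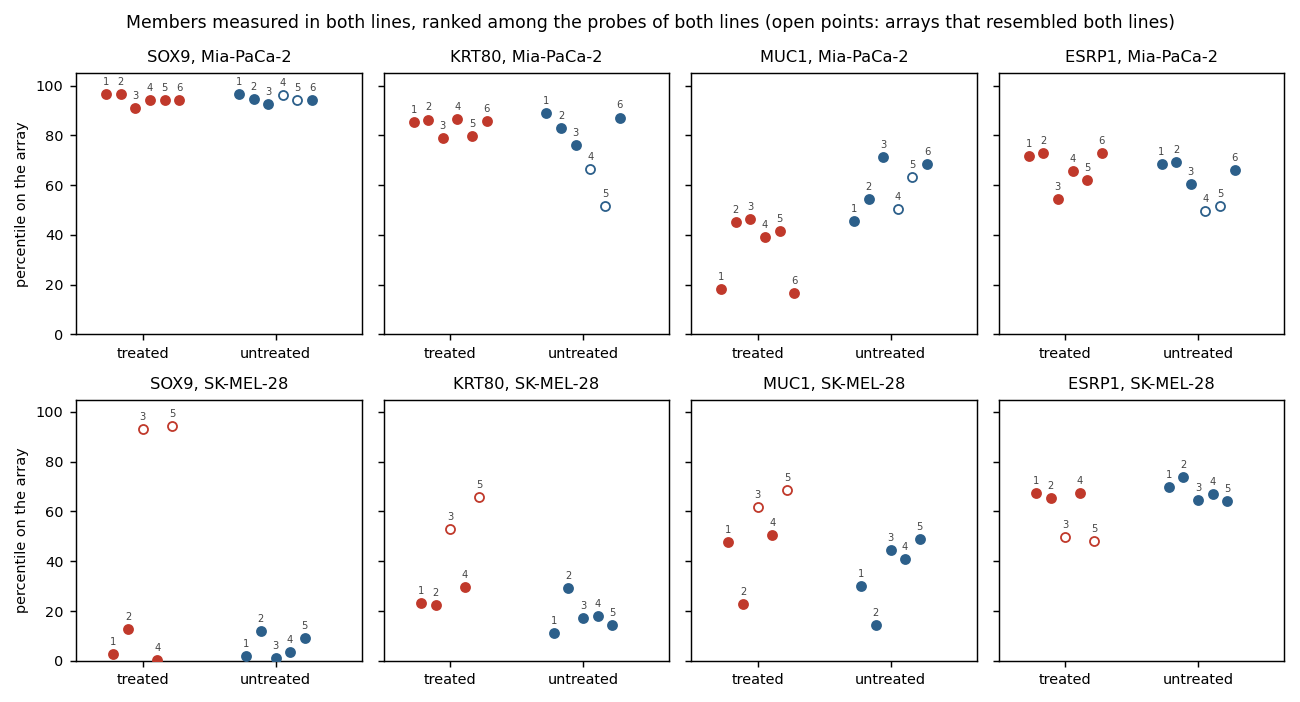
Percentile of SOX9, KRT80, MUC1 and ESRP1 on each array among the 5324 probes measured in both lines (y axis), Mia-PaCa-2 above and SK-MEL-28 below, treated left and untreated right. Points are arrays with their numbers, and open points are the arrays that resembled both lines. SOX9 stands at percentiles 93.1 and 94.4 on the open points of SK-MEL-28 and at 12.9 or less on its other arrays.

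What the gene names stand for on the 8 other SK-MEL-28 arrays is uncertain. Over 20 probes of ribosomal proteins, which every cell makes in large amounts, the median percentile per array was 99.2 to 99.7 on the 10 other Mia-PaCa-2 arrays, and 51.9 to 90.5 on these 8 arrays. On the SK-MEL-28 pair it was 99.4 to 99.6. Of 22 melanocyte markers, KIT alone had a named probe in SK-MEL-28, at a median percentile of 45.8 on the 8 arrays, so the melanoma identity could not be checked from its defining genes.

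Within SK-MEL-28 none of the 4 member probes passed an adjusted p of 0.05 by limma, where 0% of all 7973 tested probes passed. At an unadjusted p under 0.05 there was 1, KRT80, higher in treated cells, where 5.59% of all probes had such a p and 2.53% had it with a higher value in treated cells. Of the 4 changes 1 was negative, against 57.4% of all probes, and none of the 4 had groups free of overlap, against 1.2% of all probes. Without treated arrays 3 and 5, none of the 4 had an unadjusted p under 0.05, where 2.61% of all probes did, and 0% of probes passed adjustment. SOX9 had levels of 5.00, 5.77, 9.67, 4.00 and 9.93 on treated arrays 1 to 5, against 4.68, 5.70, 4.42, 5.16 and 5.61 on untreated arrays 1 to 5. Treated arrays 3 and 5 were the high ones, and the other treated arrays spread around the untreated ones. The difference was 1.76 ± 1.06 (SE; limma, adjusted p = 0.842), and -0.19 ± 0.43 without treated arrays 3 and 5. KRT80 had levels of 6.16, 6.14, 7.23, 6.41 and 7.75 on treated arrays 1 to 5, against 5.69, 6.34, 5.91, 5.98 and 5.88 on untreated arrays 1 to 5, so treated arrays 3 and 5 were again the highest. It differed by 0.77 ± 0.32 (unadjusted p = 0.0322, limma, adjusted p = 0.838), and by 0.27 ± 0.20 without those arrays. ESRP1 differed by -0.28 ± 0.20 (limma, adjusted p = 0.846), and by -0.04 ± 0.18 without them.

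MUC1 had levels of 6.92, 6.16, 7.54, 7.10 and 7.86 on treated SK-MEL-28 arrays 1 to 5, against 6.37, 5.79, 6.80, 6.76 and 7.03 on untreated arrays 1 to 5. The groups overlapped, but each treated array was higher than the untreated array of the same number, by 0.35 to 0.83. The difference was 0.57 ± 0.33 (SE; unadjusted p = 0.118, limma, adjusted p = 0.842), and 0.18 ± 0.33 without treated arrays 3 and 5. In this line the replicate numbers were taken to pair the arrays, which the labels do not state. With the number as a block the MUC1 difference was 0.57 ± 0.15 (unadjusted p = 0.00613, limma, adjusted p = 0.458), and 2 of the 4 members had an unadjusted p under 0.05, where 857 of 7973 probes (10.7%) did, against 446 without the block. With the block and without treated arrays 3 and 5 it was 0.42 ± 0.16 (unadjusted p = 0.0507).

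The MUC1 differences had opposite signs in the lines, negative in Mia-PaCa-2 and positive in SK-MEL-28. The SK-MEL-28 value rests on probe names that are uncertain on 8 of its arrays, as said above, and so does every contrast below. The difference between the treatment effects, Mia-PaCa-2 minus SK-MEL-28, was -1.50 ± 0.40 (SE; unadjusted p = 0.00122, limma contrast over 22 arrays, adjusted p = 0.595 over 5321 probes). It was -0.96 ± 0.41 (unadjusted p = 0.029, limma, adjusted p = 0.999) without the 4 arrays alike to both lines. With the replicate number as a block in SK-MEL-28, an alternative added after the data were seen, it was -1.50 ± 0.31 (unadjusted p = 0.000104, limma, adjusted p = 0.211), and -1.21 ± 0.35 without the 4 arrays as well (unadjusted p = 0.00376, limma, adjusted p = 0.661). None of these fits passed the adjusted threshold, which 0% of all probes passed. In the blocked fit with all arrays 2 of the 4 members, MUC1 and SOX9, had an unadjusted p under 0.05, where 8.25% of all probes did. Without the block, an unadjusted p under 0.05 was found for 1 of the 4 members with all arrays, where 5.47% of the 5321 probes had one, and again for 1 of 4 without the 4 arrays, where 2.98% had one. The same contrast gave -1.95 ± 1.05 for SOX9, -0.55 ± 0.40 for KRT80 and 0.33 ± 0.26 for ESRP1, all with adjusted p above that of MUC1. For SOX9 it was 0.22 ± 0.49 without the 4 arrays.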

How the data were processed

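CodeLink arrays for the human genome were read with Cy5 detection, per the series' design text. For every sample the authors deposited 1 linear intensity per probe, and a further table of the series holds their normalized intensity. How they normalized, corrected background and filtered probes was not stated in any source used here. From the values, all arrays of a line share 1 maximum. Per-sample array medians ran from 68.1 to 156 in Mia-PaCa-2 and from 55.4 to 165 in SK-MEL-28. No detection flags were used, and the number of arrays limits the precision. Gene names came from GEO's platform annotation, which gave a single symbol to 8051 of 14257 probes, more than 1 to 400 and none here to 5806. No gene coordinates are given, since the build of the probes is not named.

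After taking log2 of the normalized intensities, limma 3.58.1 in R 4.3.3 (lmFit, eBayes) was run for each line by itself on every probe with at least 3 values per group. P-values were adjusted by Benjamini-Hochberg and read at 0.05. The difference between lines was a contrast of the 2 treatment effects over all 22 arrays, and levels were never set across the separately normalized lines. Correlations between members used 100000 permutations. Alternatives were the arrays left out, other normalizations of the per-sample intensities, an offset, a filter on dim probes, array weights, the replicate block and each array left out in turn. The fits of each line and the blocked difference between lines were run on simulated data with known changes. Python 3.11.15 was used for tables and figures.

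Every member probe is reported. From other lists, up to 4 genes with the smallest p, each by its brightest probe, and for MUC1 and each keratin the 3 most correlated probes could be named. Correlated pairs of members and the promoter shown were chosen after their values were seen. The members and lists were chosen with earlier results of these data known. Same-numbered treated and untreated arrays deviated together from their group means in all 5 SK-MEL-28 pairs (r of 0.247 to 0.602), so the numbers were taken to pair the arrays there. For treated arrays 3 and 4, however, an untreated array of another number was closer (r of 0.483 against 0.401, and 0.359 against 0.306). In Mia-PaCa-2 same-numbered arrays did not deviate together in all 6 pairs (r of -0.187 to 0.437).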

Additional observations from a re-analysis of the deposited data

Results flagged for a closer look

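The bright KRT18 probe on untreated Mia-PaCa-2 array 2 stood at 13.75, apart from 13.08 to 13.13 on the other 3 untreated arrays with a value. On that array 4 brighter probes have no normalized value, and by the per-sample intensities normalized within the line its level was 13.37, against 12.92 to 13.44 on the other 5 untreated arrays.

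ESRP1 stood at 6.93 on untreated Mia-PaCa-2 array 3, below 7.18 to 7.31 on the other 5 untreated arrays. Treated array 3 was also the lowest treated array for ESRP1, at 6.73. These were the 2 single arrays that stood apart among 28 groups of arrays examined, and chance alone gives about 1 in 20 groups. Their cause was not tested.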

How the results depend on the processing

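None of the 18 member results (10 probes of the pancreatic line, 4 of the melanoma line and 4 for the difference between lines) passed an adjusted p of 0.05 by limma under any alternative run, and 375 of 384 alternative values had the sign given in the report. Without untreated arrays 4 and 5, KRT80 was -0.03 and SOX9 0.03 in Mia-PaCa-2, and SOX9 was 0.09 with the replicate block added. Without treated arrays 3 and 5, SOX9 in SK-MEL-28 was -0.19, and -0.26 with the replicate block. Without all 4 arrays its difference between lines was 0.22, and 0.29 with the replicate block in SK-MEL-28. ESRP1 in Mia-PaCa-2 ranged from -0.00 to 0.16 on leaving out 1 array. MUC1 in Mia-PaCa-2 ranged from -1.06 to -0.83 on leaving out 1 array, KRT8 from -0.76 to -0.20, KRT19 from -0.63 to -0.14, the bright KRT18 probe from 0.22 to 0.54, the dim one from 0.21 to 0.43, KRT80 from 0.06 to 0.35, CLDN4 from -0.44 to -0.31, LCN2 from -0.94 to -0.36 and SOX9 from -0.30 to -0.06. In SK-MEL-28 the same ranges were 0.52 to 0.92 for KRT80, 0.38 to 0.81 for MUC1, 1.00 to 2.48 for SOX9 and -0.35 to -0.18 for ESRP1. The cause of these shifts was not tested.

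No probe passed in any fit. The number with an unadjusted p under 0.05 was 1113 in Mia-PaCa-2, 643 to 1887 on leaving out 1 array, 636 without untreated arrays 4 and 5 and 736 with the block as well. In SK-MEL-28 it was 446, 228 to 720 on leaving out 1 array, 206 without treated arrays 3 and 5 and 285 without the dimmest 25% of probes, which tests fewer probes. For the difference between lines it was 291, 208 to 437 on leaving out 1 array, 157 without the 4 arrays and 439 with the replicate block in SK-MEL-28, added after the data were seen. The replicate block in Mia-PaCa-2, where the arrays share only a number, gave 1207 probes and -0.93 for MUC1 (limma, adjusted p = 0.471). In SK-MEL-28, where the numbers were taken to pair the arrays, the block gave 857 probes and changed no call at the adjusted threshold. There the members with an unadjusted p under 0.05 by limma went from 1 to 2 of 4. Over the probes with both values, the normalized and the per-sample intensities had the same order on every array (Spearman rho of 1). How dim probes relate to background is not known, as no background values were used.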
